A study of Homo sapiens with 34 samples.

Results

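RNA-seq levels of NALM-6 cells carrying an shRNA against CCND3 were compared with those of NALM-6 cells carrying a scrambled shRNA. NALM-6 is a human B-cell precursor acute lymphoblastic leukemia (B-ALL) cell line, which the labels give as carrying ETV6-PDGFRB. The comparison used 5 of the 34 samples of the series, chosen by their labels: 2 with CCND3 shRNA and 3 with scrambled shRNA. Both groups were cultured in the same medium, transduced with a lentiviral vector that also encodes a red fluorescent protein, sorted for it, and collected 4 days after transduction. A single shRNA against CCND3 was sequenced, so that loss of CCND3 and an action of this shRNA on other transcripts cannot be told apart. The values are the authors' levels, 1 per gene and group on a scale shared by the pair, so that no difference below was set against the spread between replicates. That spread and the depth of each sample are not known from these levels, the authors' own p-values were not used, and no SD or p-value is given. For reference, 3 other comparisons of the series were used, each with its own controls: RS4;11 cells (MLL-AF4) and BV-173 cells (BCR-ABL) with the same shRNAs, and NALM-6 cells given 1 µM palbociclib or the solvent DMSO for 3 days.

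D-type cyclins are the regulatory partners of the kinases CDK4 and CDK6. The active kinases phosphorylate the pocket proteins RB1, RBL1 and RBL2, which then release E2F transcription factors, and the genes of DNA replication are switched on. In resting cells RBL1 and RBL2 also form part of the DREAM complex, which holds genes of mitosis silent through a promoter element called CHR. B-cell precursors rely on cyclin D3, encoded by CCND3, for their expansion after assembly of the pre-B-cell receptor, and palbociclib blocks the kinase activity of CDK4 and CDK6 without removing the cyclin.

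The pair of groups listed 15409 genes, of which 10471 had a mean level of at least 50. A gene was called higher or lower when its levels differed by at least 1.5-fold at such a mean level. After knockdown 749 genes (7.15%) were higher and 1064 (10.2%) were lower than with scrambled shRNA. The median log2 ratio was −0.01 and the SD across genes was 0.48. Genes with a mean level under 2 spread less, with an SD of 0.19 across genes, than genes from 20 to 50, with 0.66. All 12 markers of B-cell precursors were past the level minimum, led by MME, which encodes CD10, at 21604 with scrambled shRNA and 26810 with CCND3 shRNA. Of the markers of other cells, 1 T-cell marker (LCK, 256 and 169) and 1 myeloid marker (LYZ, 57.0 and 98.7) passed the minimum, and none of the erythroid and megakaryocyte or the epithelial, fibroblast and packaging-line markers did. Whether the LCK and LYZ RNA came from NALM-6 cells or from other cells was not tested.

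**Figure D1:**
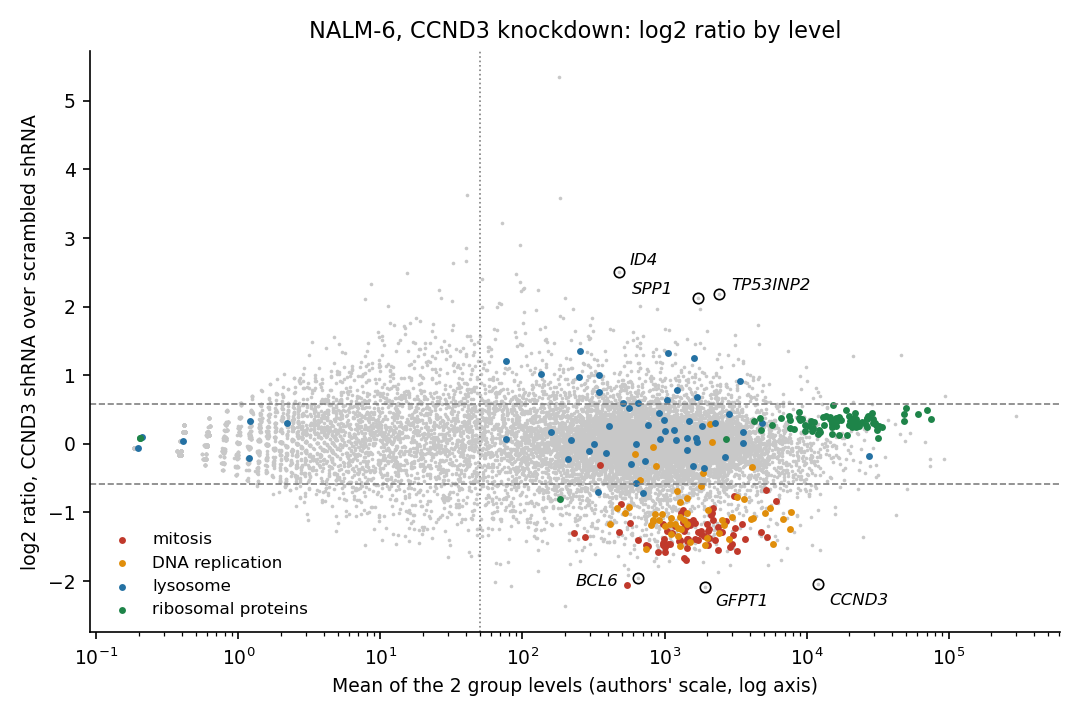
log2 ratio of CCND3 shRNA over scrambled shRNA (vertical axis) against the mean of both group levels (horizontal axis, logarithmic) for all 15409 genes of the pair, each point being 1 gene. Dashed lines mark 1.5-fold and the dotted line the level minimum of 50. Most genes of mitosis and DNA replication lie below the lower dashed line, ribosomal protein genes form a narrow band just above 0, and the shRNA target CCND3 lies at −2.04.

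CCND3, the target of the shRNA, had a level of 19498 with scrambled shRNA and 4727 with CCND3 shRNA, which left 24.2% of its RNA (log2 ratio −2.04). It was the lowest but 2 of the 8985 genes with a mean level of at least 200, below GFPT1 and CENPK only. Per kilobase of transcript, CCND3 stood at 9228 with scrambled shRNA, against 40.4 for CCND2 and 0.57 for CCND1, so that CCND3 made up nearly all of the D-type cyclin RNA. After knockdown CCND3 still stood at 2237 per kilobase, CCND2 at 41.3 and CCND1 at 0.54. The other D-type cyclins thus differed by less than 1.5-fold, with log2 ratios of 0.03 for CCND2 and −0.08 for CCND1, the latter at a level of 2.47 that is too low to read.

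Of the 8 genes of the cyclin D list past the level minimum, 4 were lower and 0 higher, where 10.2% of all genes were lower, the shRNA target being 1 of them. Apart from CCND3 these encode CDK inhibitors. CDKN2D, which encodes the CDK4 and CDK6 inhibitor p19, went from 707 to 228 (log2 ratio −1.63). CDKN2C, which encodes the related inhibitor p18, went from 1629 to 833 (−0.97), and CDKN1B, encoding p27, from 1838 to 1193 (−0.62). The kinases themselves stayed within 1.5-fold, CDK4 at 4325 and 3514 (−0.30) and CDK6 at 9283 and 6793 (−0.45). CDKN1A, which encodes p21, was at 7393 and 7813 (0.08). With palbociclib the log2 ratios were −0.36 for CCND3, −0.28 for CDKN2D, −2.35 for CDKN2C, 1.09 for CDK6 and 3.12 for CCND2, so that the higher CCND2 and CDK6 levels found with the inhibitor had no counterpart past 1.5-fold after knockdown. The difference between both comparisons was not tested.

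Of the pocket protein genes RBL1 was lower, and RB1 and RBL2 stayed within 1.5-fold. RB1 was at 5820 and 5753 (log2 ratio −0.02) and RBL2 at 2656 and 2860 (0.11), while RBL1, itself a known E2F target, went from 1595 to 681 (−1.23). Of the 19 genes of pocket proteins, E2F and DP factors and their DREAM and MuvB partners, 9 were lower (47.4%, against 10.2% of all genes) and 1 was higher. The activators E2F1 and E2F2 went from 3418 to 1452 (−1.24) and from 9022 to 3427 (−1.40), and the repressors E2F7 and E2F8 from 796 to 233 (−1.77) and from 2584 to 886 (−1.54). MYBL2, which drives mitotic genes with the MuvB complex, went from 12578 to 5516 (−1.19) and FOXM1, its partner there, from 4213 to 1589 (−1.41). E2F4, the E2F of the DREAM complex, was at 3050 and 3096 (0.02), and E2F5, of the same repressor branch, was the 1 gene higher, from 142 to 305 (1.10). The E2F genes that were lower thus were those of the activator and late repressor branches.

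Genes of DNA replication were lower together. Of 55 genes of origin licensing and the replication fork, 47 were lower (85.5%, against 10.2% of all genes) and 0 higher. Their median log2 ratio was −1.08, against −0.01 for all genes. The 6 subunits of the MCM helicase lay between −1.45 and −0.93. CDC6 and CDT1, which load this helicase onto origins, went from 2854 to 1026 (−1.48) and from 4090 to 1567 (−1.38). GINS2 and CDC45, which complete the active helicase, went from 1109 to 383 (−1.53) and from 2186 to 812 (−1.43), and CLSPN, a fork protein that relays the checkpoint signal, from 1903 to 682 (−1.48). Of the enzymes that supply nucleotides, 12 of 30 were lower (40.0%, against 10.2% of all genes), with TYMS (8594 and 3396, −1.34) and TK1 (3136 and 1240, −1.34) furthest below 0. SAMHD1, which degrades deoxynucleotides, went the other way, from 406 to 996 (1.30). Most other members of this list stayed within 1.5-fold, among them CAD (4679 and 4192, −0.16) and PPAT (2293 and 1967, −0.22), which start pyrimidine and purine synthesis.

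The promoters of these genes are shown because the word to which E2F factors bind stands in many of them. The sequences are from RefSeq (GRCh38.p14), each a stretch of 120 bases on the strand of the gene, ending no more than 30 bases after the annotated start. Capitals mark the E2F word (TTTCCCGC or TTTGGCGC, on either strand), and the promoters shown are the 3 lowest of the replication list and the 2 lowest of the E2F list that hold it.
GINS2 (chr16:85688925-85689044, minus strand): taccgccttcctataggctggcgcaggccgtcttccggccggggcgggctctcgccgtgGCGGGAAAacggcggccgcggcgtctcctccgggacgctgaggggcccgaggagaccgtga
CLSPN (chr1:35769949-35770068, minus strand): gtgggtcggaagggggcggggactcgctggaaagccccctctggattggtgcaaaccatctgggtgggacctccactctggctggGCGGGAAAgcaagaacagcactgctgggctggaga
CDC6 (chr17:40287789-40287908, plus strand): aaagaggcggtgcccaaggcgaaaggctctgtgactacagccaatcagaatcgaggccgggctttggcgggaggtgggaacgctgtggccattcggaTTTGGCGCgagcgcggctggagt
E2F2 (chr1:23531212-23531331, minus strand): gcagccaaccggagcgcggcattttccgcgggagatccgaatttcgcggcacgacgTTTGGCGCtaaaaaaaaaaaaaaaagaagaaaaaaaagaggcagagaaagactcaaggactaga
E2F1 (chr20:33686356-33686475, minus strand): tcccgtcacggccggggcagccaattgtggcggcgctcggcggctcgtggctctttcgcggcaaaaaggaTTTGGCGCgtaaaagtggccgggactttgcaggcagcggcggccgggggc
In GINS2, CLSPN, E2F2 and E2F1 the word begins between 42 and 5 bases before the start, and in CDC6 it begins at base 8 after it. Of 47 replication genes with a promoter in the table, 17 (36.2%) held the word, against 344 of 8736 promoters (3.94%) of genes past the level minimum.

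Genes of mitosis were lower almost without exception. Of 75 genes of cyclins, mitotic kinases and the spindle, 74 were lower (98.7%, against 10.2% of all genes) and 0 higher, with a median of −1.30. The exception was CCNE1, the cyclin of entry into S phase (log2 ratio −0.31). CENPK, a subunit of the inner kinetochore, went from 876 to 210 (−2.06). CKAP2L, a spindle protein, went from 2177 to 673 (−1.69), ANLN, the scaffold of the cleavage furrow, from 2080 to 657 (−1.66), and NDC80, which ties kinetochores to microtubules, from 1505 to 504 (−1.58). KIF11, the motor that pushes spindle poles apart, went from 4846 to 1644 (−1.56). In bulk samples, fewer cells in a cell cycle phase and less RNA per cell cannot be told apart. Of 26 genes of condensin, cohesin and chromosome structure, 24 were lower (92.3%, against 10.2% of all genes). STAG2 (−0.40) and TOP2B (0.38) were within 1.5-fold. The lower genes included SMC4, a core subunit of condensin (8299 and 2438, −1.77), LMNB1, encoding lamin B1 (10006 and 3111, −1.69), HMGB2 (18629 and 6348, −1.55) and the proliferation marker MKI67 (10840 and 3785, −1.52).

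Mitotic promoters are shown next, for the CHR element bound by the DREAM and MuvB complexes. Capitals mark the CHR word TTTGAA and the CCAAT box bound by NF-Y, on either strand. Shown are the 3 lowest genes of the mitosis list and the 3 lowest of the chromosome structure list whose promoter holds a CHR word.
CKAP2L (chr2:112764580-112764699, minus strand): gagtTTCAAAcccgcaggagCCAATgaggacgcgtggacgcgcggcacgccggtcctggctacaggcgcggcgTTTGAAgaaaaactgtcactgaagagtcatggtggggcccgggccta
ANLN (chr7:36389772-36389891, plus strand): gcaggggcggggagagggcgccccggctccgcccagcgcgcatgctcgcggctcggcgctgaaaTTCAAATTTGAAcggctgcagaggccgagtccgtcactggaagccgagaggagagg
NDC80 (chr18:2571467-2571586, plus strand): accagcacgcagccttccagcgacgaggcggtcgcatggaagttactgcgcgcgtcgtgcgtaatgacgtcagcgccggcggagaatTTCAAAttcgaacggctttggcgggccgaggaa
SMC4 (chr3:160399518-160399637, plus strand): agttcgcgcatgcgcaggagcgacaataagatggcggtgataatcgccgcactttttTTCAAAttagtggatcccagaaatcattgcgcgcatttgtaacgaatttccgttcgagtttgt
MKI67 (chr10:128126394-128126513, minus strand): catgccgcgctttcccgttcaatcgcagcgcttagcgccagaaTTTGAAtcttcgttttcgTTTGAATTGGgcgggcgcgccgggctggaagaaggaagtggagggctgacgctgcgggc
TOP2A (chr17:40417985-40418104, minus strand): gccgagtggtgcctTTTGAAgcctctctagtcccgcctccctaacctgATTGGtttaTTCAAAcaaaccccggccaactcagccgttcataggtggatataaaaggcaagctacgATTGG
In ANLN both capitals are CHR words, 1 on each strand, that abut to a palindrome. In MKI67 a CHR word and a CCAAT box overlap, and in CKAP2L both boxes stand upstream of a CHR word that begins 17 bases before the start. The CHR word was held by 37 of 62 mitotic promoters (59.7%), against 827 of 8736 (9.47%) for all genes past the level minimum and 15.4% of all 27305 promoters in the table. In mitotic promoters the median position of the centre of the word was −18 relative to the start, while over all genes it was −131. In replication promoters the picture was the reverse of the mitotic one, with the CHR word in 2 of 47 and the E2F word in 17, while the E2F word stood in 4 of 62 mitotic promoters.

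Over all called genes, 8.33% of the promoters of lower genes and 1.85% of those of higher genes held an E2F word, 19.4% and 6.22% a CHR word, and 49.8% and 32.3% a CCAAT box, against 3.94%, 9.47% and 37.8% of all genes past the level minimum. With a fold of at least 2 the CHR share of the higher genes was 10.7%, above that of all genes. Promoters were found for 864 of the lower and 595 of the higher genes. Lower genes that were also lower with palbociclib held the E2F word in 10.7% and the CHR word in 23.7% of 590 promoters. Lower genes that were not lower with palbociclib held them in 3.24% and 9.31% of 247 promoters, which are close to the shares of all genes. These shares count letters and do not show that a factor is bound.

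**Figure D2:**
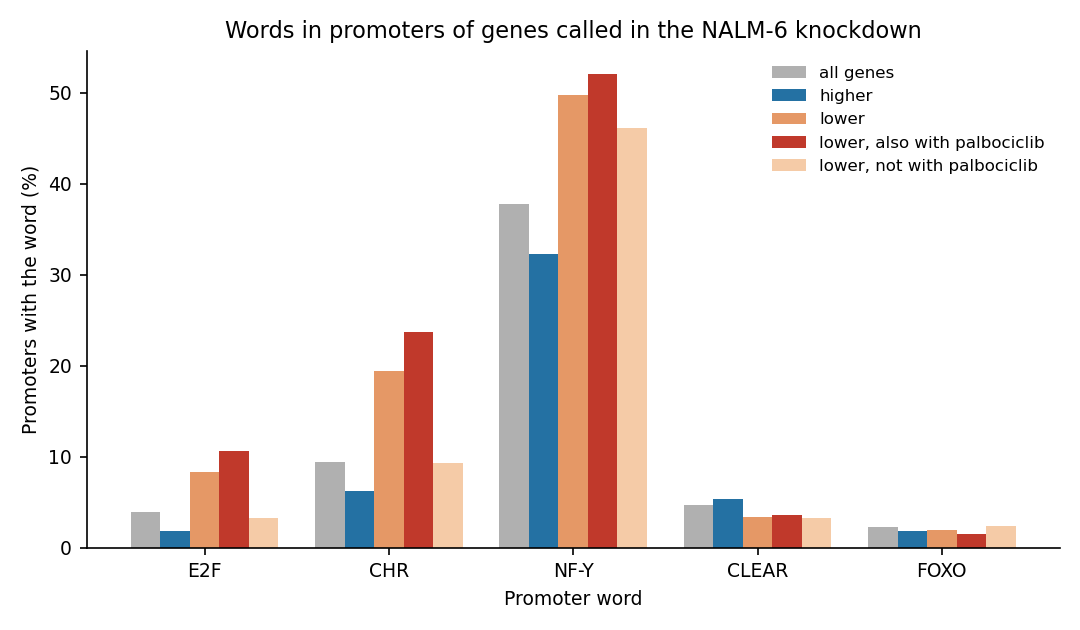
Share of promoters (vertical axis, percent) that hold each of 5 words (horizontal axis), for all genes past the level minimum, genes higher or lower after CCND3 knockdown in NALM-6, and lower genes split by whether they were also lower with palbociclib. The E2F and CHR bars are tallest for genes lower in both (10.7% and 23.7%), the NF-Y bars (the CCAAT box) differ less, and the CLEAR and FOXO bars are low in every group, between 1.53% and 5.38%.

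DNA repair and chromatin genes that act in S phase were lower too. Of 39 genes of homologous recombination, the Fanconi pathway and mismatch repair, 28 were lower (71.8%, against 10.2% of all genes) and 0 higher (median −0.91). BRCA2, which acts in homologous recombination, went from 1546 to 554 (−1.48), the nuclease gene EXO1 from 1916 to 694 (−1.47) and the helicase gene BLM from 1449 to 568 (−1.35). Of 20 genes of DNA methylation and Polycomb, 9 were lower (45.0%, against 10.2% of all genes). Among them were UHRF1, which guides maintenance methylation (6802 and 2676, −1.35), the methyltransferase gene DNMT1 (9404 and 4380, −1.10) and HELLS (1412 and 678, −1.06). Among ubiquitin regulators of the cell cycle 6 of 27 were lower (22.2%, against 10.2%), with CDC20 (4385 and 1598, −1.46) and UBE2C (2708 and 1067, −1.34) leading. Both act with the anaphase-promoting complex. Of 58 genes of the nuclear pore and nuclear transport 10 were lower (17.2%, against 10.2%), among them IPO8 (1951 and 916, −1.09) and NUP54 (1850 and 934, −0.99), and of 44 HNRNP and SR splicing genes 6 were lower (13.6%, close to the 10.2% of all genes), by less than 2-fold each, and SRSF8 was higher (1684 and 2538, 0.59).

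**Figure D3:**
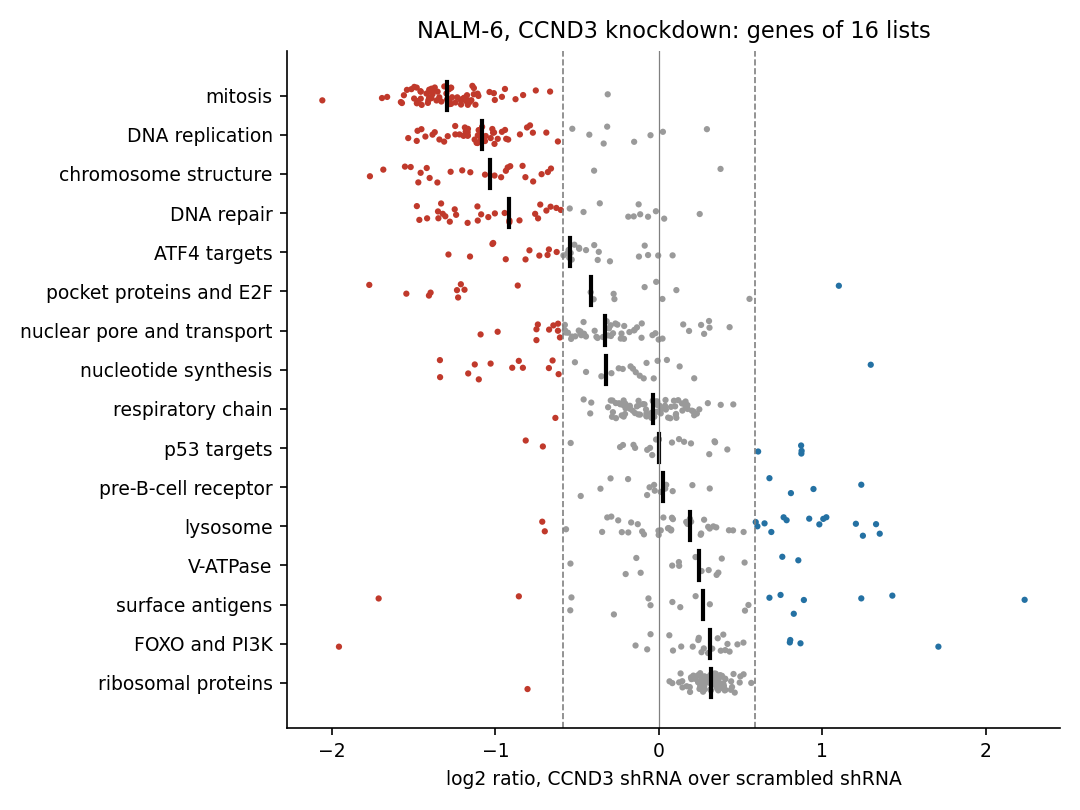
log2 ratio of CCND3 shRNA over scrambled shRNA (horizontal axis) for the members of 16 gene lists past the level minimum, 1 point per gene, red when lower and blue when higher by at least 1.5-fold, with black bars at the list medians. The mitosis list centres at −1.30 and the DNA replication list at −1.08, while the medians of the lysosome list (0.19) and the ribosomal proteins (0.32) lie above 0.

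The largest differences among genes with a mean level of at least 200 reached beyond the cell cycle. GFPT1, the rate-limiting enzyme of the hexosamine pathway, was the lowest, at 3119 and 735 (log2 ratio −2.09). It was followed by CENPK, CCND3 and BCL6, a transcriptional repressor of germinal centre and pre-B cells, which went from 1043 to 269 (−1.96). TAF9B, a subunit of the general transcription factor TFIID, went from 867 to 232 (−1.90), the chloride channel gene CLIC4 from 3712 to 1018 (−1.87), KLHL23 from 860 to 243 (−1.82) and the zinc finger gene ZNF367 from 1392 to 404 (−1.79), ahead of E2F7 and SMC4. The highest was ID4, an inhibitor of basic helix-loop-helix factors, from 143 to 812 (2.51). TP53INP2, which takes part in autophagy, went from 870 to 3946 (2.18), SPP1, encoding osteopontin, from 645 to 2805 (2.12), TTN from 269 to 1080 (2.00), UMODL1 from 93.1 to 364 (1.97), the nuclear receptor gene PPARD from 719 to 2808 (1.97) and SATB1, a chromatin organizer of lymphoid cells, from 360 to 1400 (1.96). CACNA2D3 (134.8 and 480, 1.83), AGAP1 (2105 and 6999, 1.73) and TMC8 (138 and 459, 1.73) completed the 10 highest. Below that level GGACT stood out, from 8.75 to 355 (5.34), and RGS8, from 28.6 to 341 (3.58). Their ratios rest on low levels with scrambled shRNA.

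**Figure D4:**
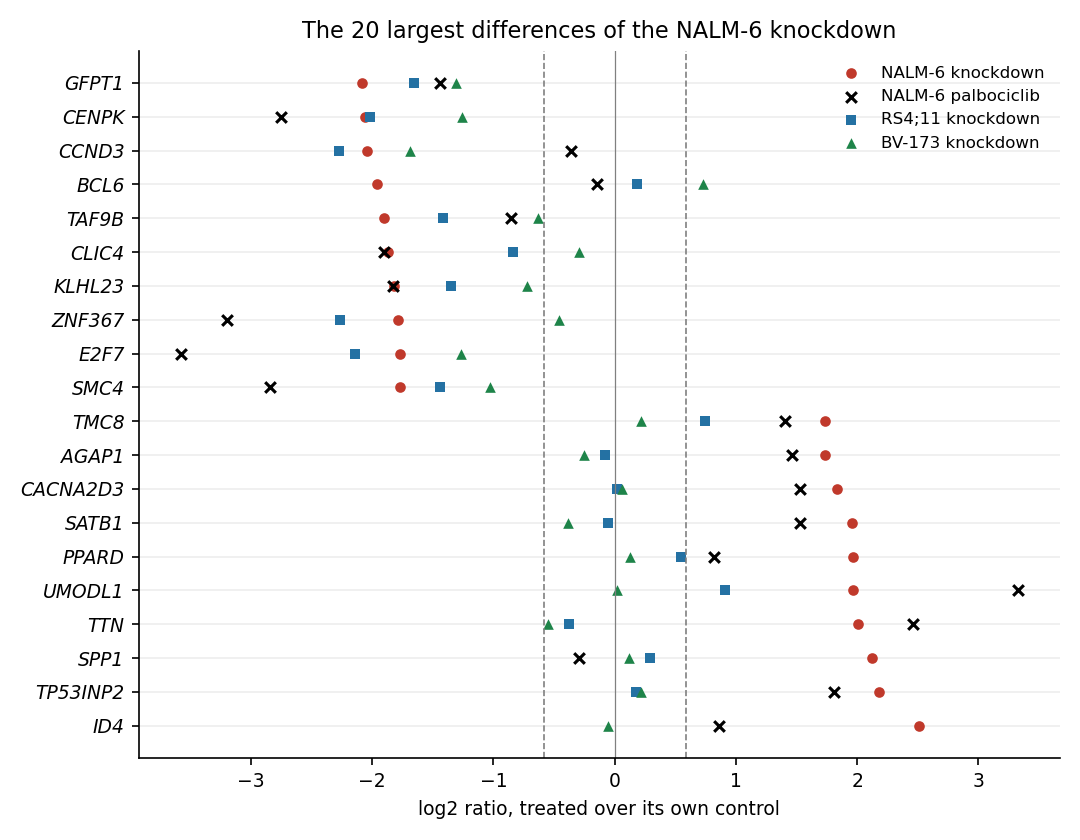
log2 ratio of treated over its own control (horizontal axis) for the 10 genes furthest below and the 10 furthest above 0 after CCND3 knockdown in NALM-6, with the same gene in the RS4;11 and BV-173 knockdowns and with palbociclib in NALM-6. Dashed lines mark 1.5-fold. The genes lower in NALM-6 are mostly lower in the other lines, BCL6 being an exception. Most genes higher in NALM-6 lie near 0 in RS4;11 and BV-173 but, SPP1 apart, above 0 with palbociclib. ID4 has no value in RS4;11.

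The same genes had partly other values in the other lines. In the RS4;11 and BV-173 knockdowns the log2 ratios were −1.65 and −1.31 for GFPT1, −2.02 and −1.26 for CENPK, and −1.42 and −0.63 for TAF9B, lower by at least 1.5-fold in each line. BCL6 had 0.18 in RS4;11, within 1.5-fold, and 0.73 in BV-173, the opposite direction to NALM-6. Of the 10 highest genes in NALM-6, UMODL1 (0.91) and TMC8 (0.75) were higher by at least 1.5-fold in RS4;11 and none in BV-173. With palbociclib in NALM-6 all of the 10 but SPP1 (−0.29) were higher by at least 1.5-fold, from 0.82 for PPARD to 3.33 for UMODL1. SATB1 stood at −0.05 and −0.39, AGAP1 at −0.08 and −0.25, TP53INP2 at 0.17 and 0.22 and SPP1 at 0.29 and 0.12 in RS4;11 and BV-173. These differences between comparisons were not tested.

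Of the 12 genes that the study picked on these samples, 9 were lower, 2 were higher and RENBP (163 and 218, log2 ratio 0.42) stayed within 1.5-fold. The list was chosen on these samples and is not independent evidence of its direction. The study describes its genes as regulated by the knockdown only, under its own criteria. At the fold used here, 3 of the 12 were also lower with palbociclib (against 18.1% of all genes): GFPT1 (−1.44), CBFB (−0.90) and PRDX3 (−0.73). Besides CCND3 and GFPT1 the lower genes were PRDX3, a mitochondrial peroxiredoxin (4432 and 1306, −1.76), ACBD7 (977 and 312, −1.65), CBFB, the partner of RUNX factors (4134 and 1405, −1.56), SEPTIN7 (4515 and 1576, −1.52), NEK7 (1136 and 431, −1.40), ICMT, which methylates prenylated proteins (3157 and 1363, −1.21), and CDK8, the kinase of the Mediator complex (1007 and 483, −1.06). CDK19, the paralog of CDK8, went from 716 to 388 (−0.88). Of 32 Mediator genes, these included, 3 were lower (9.38%, near the 10.2% of all genes), the third being MED30 (406 and 262, −0.63). The median of the list was −0.09. DYNLRB1, a dynein light chain gene (480 and 1531, 1.67), and HSD17B10, a mitochondrial dehydrogenase gene (430 and 923, 1.10), were higher. The text of the study names both, and RENBP, among the genes repressed by the knockdown, unlike the direction of these levels.

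Of all lists, that of lysosomal genes held the largest number of higher members, though not the largest share. Of the B-ALL surface antigens 35.0% were higher. Of 51 lysosomal enzymes and membrane proteins past the level minimum, 14 were higher (27.5%, against 7.15% of all genes) and 2 lower, with a median log2 ratio of 0.19. IDUA, which degrades glycosaminoglycans, went from 144 to 366 (1.35), CTNS, the cystine exporter, from 603 to 1513 (1.33), and ASAH1, the acid ceramidase, from 952 to 2261 (2.37-fold). SMPD1, the acid sphingomyelinase (46.0 and 106, 2.30-fold), and the cathepsin CTSZ (89.5 and 182, 1.02) started from low levels, while IFI30, a thiol reductase, was abundant (2334 and 4413, 0.92). Of 16 subunits of the V-ATPase, the proton pump of this organelle, 2 were higher (12.5%, against 7.15% of all genes), ATP6V0D1 (881 and 1591, 0.85) and ATP6V0C (1719 and 2900, 0.75). TFEB and TFE3, which activate lysosomal genes, were at 769 and 1052 (0.45) and at 464 and 664 (0.52), below 1.5-fold. The galactosidase gene GLB1 (877 and 535, −0.71) and the ion channel gene MCOLN1 (420 and 259, −0.70) went the other way, so that the group did not move as 1 unit.

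The CLEAR element is the promoter word through which TFEB and TFE3 act. Capitals mark CACGTGAC on either strand in the promoters of the 2 highest lysosomal genes and the highest V-ATPase gene that hold it.
CTSA (chr20:45891245-45891364, plus strand): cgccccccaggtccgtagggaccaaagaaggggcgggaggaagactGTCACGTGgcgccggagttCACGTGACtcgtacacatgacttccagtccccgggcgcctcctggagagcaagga
GAA (chr17:80101491-80101610, plus strand): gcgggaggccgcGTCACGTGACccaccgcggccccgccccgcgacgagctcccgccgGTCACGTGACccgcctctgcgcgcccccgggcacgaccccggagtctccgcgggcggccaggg
ATP6V0D1 (chr16:67481155-67481274, minus strand): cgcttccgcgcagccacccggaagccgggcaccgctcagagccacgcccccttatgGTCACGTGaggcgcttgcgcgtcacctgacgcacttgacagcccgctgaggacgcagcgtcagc
GAA, the acid glucosidase, went from 808 to 1265 (log2 ratio 0.65) and CTSA, a carboxypeptidase, from 1303 to 2099 (0.69). In GAA the palindrome is read as overlapping words on both strands at 2 places. The word stood in 6 of 37 lysosomal promoters (16.2%) and 3 of 11 V-ATPase promoters, against 414 of 8736 (4.74%), but in 5.38% of the promoters of all higher genes. The replication list held it in 7 of 47 promoters (14.9%), so that the word is not particular to genes that were higher.

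Of the B-lineage transcription factors 19 of 26, and of the pre-B-cell receptor genes 14 of 18, stayed within 1.5-fold. Of all genes 17.3% were called. Among the 26 transcription factors, 5 were lower (19.2%, against 10.2% of all genes) and 2 higher (7.69%, against 7.15%), with a median of −0.06. PAX5 was at 17673 and 15518 (−0.19) and EBF1 at 6044 and 5978 (−0.02). Besides BCL6 and CBFB the lower genes were IRF4, which acts at the exit from the large pre-B stage (4610 and 2792, −0.72), LEF1 (10693 and 6842, −0.64) and SPIB (601 and 390, −0.63), and TCF4, which encodes E2-2 (8912 and 15049, 0.76), and BACH2 (5911 and 9056, 0.62) were higher. Of 18 genes of the pre-B-cell receptor and of V(D)J recombination, 4 were higher (22.2%, against 7.15%) and 0 lower, among them the inhibitory receptor CD22 (1964 and 4631, 1.24), the kinase BTK (3088 and 5945, 0.95) and CD72 (1224 and 2143, 0.81). The surrogate light chain genes VPREB1 (3627 and 3653, 0.01) and IGLL1 (10201 and 9994, −0.03) and the recombinase gene RAG1 (15269 and 15002, −0.03) were close to 0.

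Surface antigens used to type B-ALL cells showed both directions. Of 20 past the level minimum, 7 were higher (35.0%, against 7.15% of all genes) and 2 lower. CD34, a marker of early progenitors, went from 45.4 to 214 (log2 ratio 2.24), TNFRSF13C, the BAFF receptor, from 349 to 938 (1.43), CD69 from 260 to 481 (0.89) and BST2 from 498 to 883 (0.82). CD99 went from 1645 to 501 (−1.71) and IL7R, the receptor chain for interleukin 7, from 8081 to 4462 (−0.86). Among homing and adhesion receptors, 3 of 12 were higher (against 7.15% of all genes), led by S1PR1, which guides lymphocytes out of tissues (152 and 474, 1.64), and ITGA6 (1501 and 3076, 1.04), and ITGB2 was lower (1661 and 972, −0.77). CD99 and ITGB2 had log2 ratios of 0.34 and 0.92 in RS4;11 and of 0.31 and 0.36 in BV-173, of opposite sign to NALM-6. Of these values only that of ITGB2 in RS4;11 passed 1.5-fold. With palbociclib in NALM-6 both genes were lower, at −0.92 and −1.57.

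Genes of MHC class II presentation had log2 ratios below 0 after knockdown in NALM-6, and above 0 in RS4;11 and with palbociclib. Of the 10 HLA class II genes listed, the 8 past the level minimum lay between −0.97 and −0.09. Of these 8, 4 were lower by at least 1.5-fold, against 10.2% of all genes. HLA-DRB3, which the list lacks, was lower too (612 and 367, −0.74). CIITA, the coactivator of class II genes, went from 1372 to 690 (−0.99), HLA-DPB1 from 1604 to 821 (−0.97), and HLA-DPA1 from 3883 to 2322 (−0.74). In RS4;11 all 9 listed class II genes past the level minimum were higher by at least 1.5-fold after knockdown, against 9.03% of all genes. Their log2 ratios ran from 0.98 to 2.01. With palbociclib in NALM-6, 8 of 9 listed genes were higher (against 15.2% of all genes), from 0.51 to 3.40 over the 9. In BV-173 none of the 10 listed class II genes was called and 9 were above 0, with a median of 0.19. HLA-DRB3 stood at 0.94 in RS4;11, 0.77 with palbociclib and 0.12 in BV-173. CIITA had log2 ratios of 1.04 in RS4;11, 1.23 with palbociclib and −0.65 in BV-173. The 6 class I genes examined, B2M among them, lay between 0.05 and 0.24, and NLRC5, the coactivator of class I genes, was higher (1387 and 2328, 0.75), so that both classes did not move together. Reads of these near-identical HLA genes could be split by the authors' counting, both subsets were set apart after their values were seen, and the differences between comparisons were not tested.

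Lists of stress and survival genes differed from each other. Of 30 genes of the ATF4 and amino acid response, 11 were lower (36.7%, against 10.2%) and 0 higher. In all, 29 of the 30 lay below 0, with a median of −0.54. In RS4;11 18 of 29 were lower (62.1%, against 11.1% of all genes), with a median of −0.66. In BV-173 0 of 29 were lower (against 4.72%), with a median of 0.18, and the difference between lines was not tested. ATF4 itself was at 12759 and 12720 (0.00). The mTORC1 inhibitor gene DDIT4 went from 11501 to 4712 (−1.29), the amino acid transporter genes SLC7A11 and SLC7A5 from 596 to 268 (−1.16) and from 21324 to 10528 (−1.02), and TRIB3 from 4460 to 2209 (−1.01). In the BCL2 family 3 of 16 genes were lower (18.8%, against 10.2% of all genes) and 1 higher (6.25%, against 7.15%). BCL2, which blocks apoptosis, went from 938 to 482 (−0.96), the mitophagy receptor gene BNIP3 from 1491 to 642 (−1.22) and the BH3-only gene BIK from 266 to 167 (−0.67), while HRK, another BH3-only gene, went from 189 to 448 (1.24). Of 25 p53 target genes 2 were lower and 4 higher, counts to be read against 10.2% and 7.15% of all genes, with ZMAT3 (1748 and 3201, 0.87) and TP53INP1 (368 and 672, 0.87) among the higher and DDB2 (1399 and 795, −0.81) and POLH (1999 and 1222, −0.71) the lower ones, and a median of 0.00.

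Lists of metabolism and of the protein machinery held both larger and smaller shares of lower genes than all genes. In glycolysis and the pentose phosphate pathway 4 of 28 were lower (14.3%, against 10.2% of all genes), ENO2 (402 and 142, log2 ratio −1.50), LDHA (13170 and 7770, −0.76), SLC16A1 (4117 and 2701, −0.61) and HK2 (3363 and 2237, −0.59). In the redox list of peroxiredoxins, thioredoxin, glutathione and NRF2 targets 7 of 33 were lower (21.2%, against 10.2% of all genes). The 2 higher ones (6.06%, against 7.15%) were the catalase gene CAT and the superoxide dismutase gene SOD2 (3428 and 5384, 0.65). After PRDX3 and SLC7A11 the largest distances were those of GSTP1 (1994 and 1195, −0.74) and NQO2 (120 and 71.8, −0.74). Of 32 genes of sterol and isoprenoid synthesis 5 were lower (15.6%, against 10.2% of all genes), led by ICMT and ACAT2 (1467 and 768, −0.93). The 1 higher gene was TM7SF2, a sterol reductase gene (289 and 807, 1.48). In the respiratory chain 1 of 80 genes was lower, COX8A (2721 and 1754, −0.63), in the proteasome 1 of 37, PSMC6 (1274 and 770, −0.73), and in ribosome biogenesis 1 of 54, NOB1 (1966 and 1227, −0.68). The 78 mitochondrial ribosomal proteins had 3 lower members and MRPL16 stood far from the rest (1452 and 527, −1.46).

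Ribosomal protein genes moved little but evenly. Of 81 past the level minimum, 80 had a log2 ratio above 0, with a median of 0.32, and 0 reached 1.5-fold upward. RPL13A went from 41065 to 58796 (0.52) and RPS14 from 12422 to 18373 (0.56). The exception was RPL39L, a paralog of RPL39 (233 and 133, −0.80). Among translation factors EEF2, the elongation factor, was higher, from 71418 to 115669 (0.70). In RS4;11 and BV-173 the median of the ribosomal proteins was 0.40 and 0.53, and with palbociclib in NALM-6 it was 0.03. These are small and even distances in very abundant RNAs, for which the share of the library and the level per cell cannot be told apart.

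Of 26 genes of FOXO factors, PI3K signalling and FOXO targets, 4 were higher (15.4%, against 7.15%) and 1, BCL6, was lower. KLF2, a quiescence factor of lymphocytes, went from 67.9 to 222 (log2 ratio 1.71), AKT1S1 from 355 to 647 (0.87) and PIK3R1, the regulatory PI3K subunit, from 6664 to 11629 (0.80). FOXO1 was at 5519 and 6611 (0.26) and FOXO3 at 906 and 1222 (0.43). In the list of MAX partners MXD4, a repressor of growth genes, went from 357 to 987 (1.47) and MXD3 from 1015 to 472 (−1.10). The list of JAK and STAT5 targets and feedback genes also held the receptor gene PDGFRB. Of its 15 genes past the level minimum, 3 were higher (20.0%, against 7.15% of all genes) and 2 lower (13.3%, against 10.2%). PIM2 went from 610 to 1257 (1.04), CISH from 191 to 349 (0.87), PIM1 from 511 to 212 (−1.27), and PDGFRB, part of the fusion named in the labels, from 251 to 159 (−0.66). Of 35 interferon-stimulated genes 5 were lower (14.3%, against 10.2% of all genes) and 1 higher (2.86%, against 7.15%), with HERC5 (1491 and 694, −1.10) and IRF1 (1986 and 1026, −0.95) furthest below.

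The FOXO word GTAAACA stood in 1.85% of the promoters of higher genes and 1.97% of those of lower genes, against 2.26% of all genes past the level minimum. It is shown in the promoter of CCND3 itself, where capitals mark it. It begins at position −2 and spans the start that RefSeq annotates for this gene, and from another annotated start its position would differ. The study places a FOXO motif with these letters upstream of the start it used. It reports binding there by a FOXO1 forkhead domain in a gel shift assay, and by an active FOXO1 variant in chromatin immunoprecipitation. Whether both are the same site was not tested here.
CCND3 (chr6:42048659-42048778, minus strand): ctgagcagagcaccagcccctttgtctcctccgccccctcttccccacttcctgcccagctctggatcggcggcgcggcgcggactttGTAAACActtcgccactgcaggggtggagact
In all 27305 promoters of the table the word occurred in 3.41%.

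The response to palbociclib in the same line was larger and had separate controls. With palbociclib 1584 genes (15.2%) were higher and 1881 (18.1%) lower at the same thresholds. Of the 1030 genes lower after knockdown that were past the level minimum in both comparisons, 733 (71.2%) were also lower with palbociclib, 259 were within 1.5-fold and 38 were higher. Those 733 were 39.2% of the 1870 genes lower with palbociclib. Of 723 higher genes, 471 (65.1%) were also higher, which were 30.4% of the 1549 higher with palbociclib. Across 10322 genes, which are not independent replicates, Pearson's r was 0.69 and Spearman's rho 0.63. All 74 lower mitotic genes and all 47 lower replication genes were lower with palbociclib, where the medians of these lists were −3.18 and −2.16, against −1.30 and −1.08 with knockdown.

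**Figure D5:**
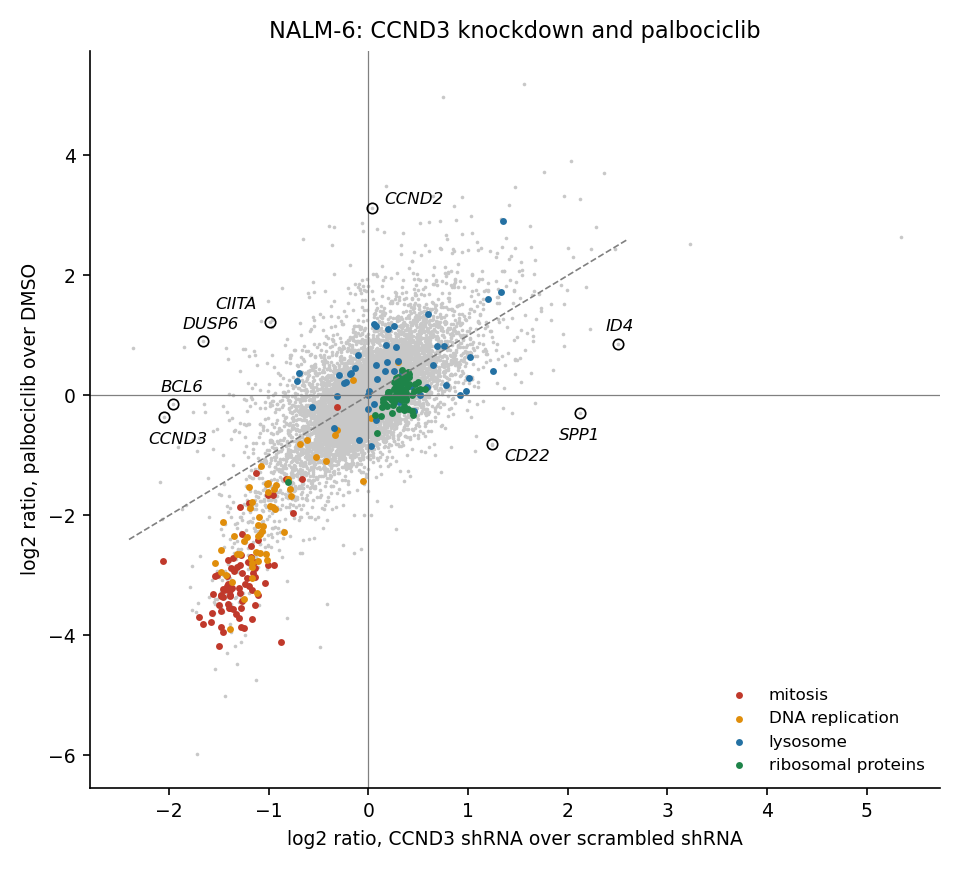
log2 ratio with palbociclib over DMSO (vertical axis) against log2 ratio with CCND3 shRNA over scrambled shRNA (horizontal axis) in NALM-6, 1 point per gene past the level minimum in both, with the dashed line at equal values. Most mitotic and replication genes lie below the dashed line, most ribosomal proteins to the right of 0, and of the circled genes DUSP6, CIITA, CD22 and SPP1 lie in quadrants of opposite sign.

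Among genes with a mean level of at least 200, 24 were lower after knockdown and higher with palbociclib. DUSP6, a phosphatase that dampens ERK signalling, was furthest below, at 1329 and 421 (log2 ratio −1.66, against 0.90 with palbociclib). It was followed by LGR6 (−1.43 and 0.80), KBTBD8 (−1.41 and 0.61) and EPDR1 (−1.23 and 0.77). The 24 genes also held 3 of the 5 metallothioneins past the level minimum, MT2A, MT1H and MT1F, which bind zinc, at −1.14, −0.79 and −0.77 against 0.67, 0.64 and 0.68, while MT1G (−0.40) and MT1X (0.33) were within 1.5-fold after knockdown. TSC22D3, a glucocorticoid target, was in the set too (−1.01 and 1.57). The reverse was found for 8 genes, among them CD22 (1.24 and −0.81), NECTIN1 (1.24 and −0.83), NDRG4 (1.07 and −0.92) and KIT, a cytokine receptor (0.67 and −0.99). A further 215 lower and 193 higher genes at such levels stayed within 1.5-fold with palbociclib. Besides CCND3 the lower ones were led by BCL6 (−0.14 with palbociclib), PFKFB4, a regulator of glycolysis (335 and 99.3, −1.76, and −0.27 with palbociclib), ACBD7 (−0.14), CDKN2D (−0.28), SEPTIN7 (−0.55) and MRPL16 (−0.18), and the higher ones by SPP1 (−0.29), DYNLRB1 (−0.13) and DACT1 (1.63 after knockdown, 0.38 with palbociclib). The differences between both comparisons were not tested.

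In the other lines the same thresholds gave 975 higher (9.03%) and 1203 lower genes (11.1%) in RS4;11, and 370 higher (3.68%) and 474 lower genes (4.72%) in BV-173. Of 997 genes lower in NALM-6 and past the level minimum in RS4;11, 670 (67.2%) were lower there too, which were 61.0% of 1098, and of 952 measured in BV-173, 252 (26.5%), which were 55.8% of 452. Of the higher genes, 256 of 623 (41.1%) were also higher in RS4;11, which were 36.7% of 698, and 81 of 565 (14.3%) in BV-173, which were 28.5% of 284. In all 3 lines 231 of 934 lower genes and 52 of 539 higher genes were shared, and the median of the 231 was −1.22 in NALM-6. Another 276 lower and 296 higher genes were called the same way in neither other line, and 174 and 122 of these were also not called the same way with palbociclib. Pearson's r across genes was 0.71 with RS4;11 (9890 genes) and 0.44 with BV-173 (9552 genes).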

How the data were processed

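RNA of NALM-6 cells with CCND3 shRNA (2 samples) or scrambled shRNA (3 samples) was measured by RNA-seq of mRNA enriched with oligo dT. The authors used Bowtie2 for mapping (hg38), RSEM for the levels and DESeq2 for their own comparisons, per the submitters' processing notes (versions are not given in the sources used here). The authors deposited 1 signal per gene and group, a level scaled within the pair of groups. How the samples of a group were combined is not given in the sources used here. The deposited tables also hold the authors' log2 fold changes, p-values and adjusted p-values, which were not used. Depth per sample is unknown, and so is the precision of a level.

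Here the log2 ratio of both levels was computed with no pseudocount, in Python 3.11.15 (pandas 2.3.3, numpy 2.4.6). A gene was called at a fold of at least 1.5 and a mean level of at least 50. No test was run. The other pairs were scaled separately, so that only ratios within a pair are set side by side. Genes were matched by NCBI gene ID to RefSeq (GRCh38.p14), where 15383 of 15409 IDs were found, and 8736 of the 10471 genes past the level minimum had a promoter of 250 bases before to 50 after the start. Words were searched on both strands. The fold call was tested on simulated levels that held counting noise but no spread between replicates.

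The 41 gene lists and the comparison were chosen with earlier results of these data known. Genes were named by rule: CCND3, the other genes the study picked, D-type cyclins, CDK4, CDK6, RB1 and CDK19, the 10 largest rises and falls at a mean level of at least 200, up to 4 members of each list (8 in 6 lists) furthest from 0, and members with a fixed role. CAD, PPAT, CCNE1, STAG2, TOP2B, SRSF8, GGACT, RGS8, GLB1, MCOLN1, GAA, CTSA, CD69, IL7R, POLH, CAT, SOD2, the genes set against palbociclib and the mentioned genes near 0 were named after their values were seen. The alternatives were other folds, level minima, a pseudocount of 10 and other scalings.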

Additional observations from a re-analysis of the deposited data

How the results depend on the processing

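With a fold of at least 2 the counts after CCND3 knockdown in NALM-6 fell from 749 to 205 higher and from 1064 to 405 lower genes, and those of the list members from 54 to 20 higher and from 291 to 176 lower. With the smallest fold tried they were 1910 higher and 2190 lower genes, and 168 higher list members. With no level minimum 1205 genes were higher. With a fold of at least 2 the E2F share of promoters of lower genes was 12.3%, and the CHR shares were 28.0% for lower and 10.7% for higher genes. With mean levels of at least 10 or 200, a pseudocount of 10, the median log2 ratio taken out or equal totals, the counts of higher genes lay between 530 and 1002 and those of lower genes between 872 and 1217. With equal totals the median of all genes moved from −0.01 to 0.01. No named gene past 1.5-fold changed sign under the pseudocount or either scaling, but RB1 (−0.02), EBF1 (−0.02) and ATF4 (0.00) turned from just below to just above 0 with equal totals. LCK (−0.57 with the pseudocount and −0.58 with equal totals) and HK2 (−0.58 and −0.57 with the scalings) fell below 1.5-fold, and MED28 (0.59 and 0.60 with the scalings) and RPS14 (0.59 with equal totals) passed it. A mean level of at least 200 for the promoter words, chosen after seeing the data, left every share within its counting interval. No paired analysis was possible because the tables hold 1 level per group, and for the same reason no replicate could be left out.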
